A study of Saccharomyces cerevisiae with 19 samples.

Results

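Ribosome profiling libraries of budding yeast that carry the name DualLigation were compared with libraries of the same assay made by the 3 standard preparations of the series, Nonrandom, 4N and 4+3N, pooled into 1 group. The comparison used 9 of the 19 libraries of the series, 3 titled DualLigation and 6 standard (2 of each preparation), and left out the libraries titled low and the mRNA-seq libraries. Membership was read from the sample titles and from no measured value. All 9 libraries came from Saccharomyces cerevisiae BY4741, a haploid MATa laboratory strain described as wild type, grown in rich YPD medium, exposed to cycloheximide before filtration and lysed in buffer with cycloheximide, an inhibitor of translation elongation. Extracts were digested with RNase I, and footprints were taken from the monosome fraction. The groups differ by the preparation named in the title: N stands for a random base in the oligonucleotides joined to each footprint. The protocol text is the same for every sample and describes ligation of a linker, reverse transcription and circularization of the cDNA, also for the DualLigation libraries. What sets DualLigation apart is therefore known from its name alone, and whether its cells, extracts and sequencing were those of the standard libraries is not stated. The preparation and anything else that differed between the groups cannot be told apart. Nothing says that replicates came from separate cultures, so that p-values measure the spread between these libraries, which may be technical.

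In ribosome profiling, the stretch of mRNA covered by a ribosome survives nuclease digestion and is turned into a sequencing library. The number of footprints on a coding sequence reflects how much of that mRNA there is and how many ribosomes it carries. Before a footprint can be read, an adapter has to be attached at each of its ends, either by joining oligonucleotides with a ligase or by circularizing a cDNA. Ligases are known to prefer some end sequences to others, and random bases at the junction are used to even out such preferences.

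Total counts were 6735945, 13478946 and 11586006 reads in DualLigation replicates 1, 2 and 3. The standard libraries held 11656814 and 8798525 reads (Nonrandom), 10884080 and 10263096 (4N), and 6906778 and 7678144 (4+3N). Levels are given as normalised CPM, the reads of a gene per 1000000 reads of its library after correction of the library total for composition (TMM factors of 0.872, 0.6864 and 0.6471 in DualLigation and 1.13 to 1.203 in the standard libraries). They are not divided by gene length, so that they compare libraries and not genes. They remain relative values, but after the correction they are not shares of a library's reads. A gene that takes up more reads leaves fewer for the others, and a higher value is not shown to be a higher number of footprints in the cells. The a-cell receptor gene STE2 was read in both groups (123.3 to 213.2 CPM in DualLigation and 402.6 to 500.2 CPM in the standard libraries, without the composition factor). The alpha-factor genes MF(ALPHA)1 and MF(ALPHA)2 each had 0 reads in DualLigation and 6 in all standard libraries together. The alpha-cell receptor gene STE3 had 41 reads in DualLigation and 130 in the standard libraries (0 to 2.45 and 1.54 to 3.02 CPM). Of the genes deleted in BY4741, LEU2 had 0 and 1 reads and URA3 and MET17 had 0 reads in both groups. HIS3, of which the strain keeps a part, lay at 68.4 to 123.2 CPM and 77.9 to 85.7 CPM, also without the composition factor. As normalised CPM, HIS3 stood at 105.8 to 141.3 against 64.9 to 75.4 (log2 fold change 0.84, edgeR adjusted p = 2.6e-05).

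The genes that held most reads were different. In each of the 6 standard libraries PDC1, the pyruvate decarboxylase of fermentation, held most reads, and glycolytic genes followed. In DualLigation replicate 1 the leading gene was IMD4, an inosine monophosphate dehydrogenase of GTP synthesis, with 2.93% of the reads, ahead of YEF3, the fungal translation elongation factor eEF3, with 2.58%. YEF3 led in replicates 2 and 3 with 9.23% and 9.78% of all reads, and IMD4 followed with 4.13% and 4.51%. The 10 genes with most reads of each library together took 16.6%, 25.3% and 24.9% of the reads in DualLigation and 16% to 17.0% in the standard libraries. Replicate 1 thus lay inside the standard range, and the difference of means, 5.85 percentage points, did not pass (exact permutation test over the 9 libraries, two-sided, p = 0.0714, adjusted p = 0.167 over 5 measures).

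The number of genes detected was lowest in DualLigation. At an equal depth of 6735945 reads, 5420, 5285 and 5061 genes had a read in the 3 DualLigation libraries against 5510 to 5526 in the standard libraries. The groups did not overlap, but the exact permutation p of 0.0238, the smallest that 84 arrangements of the libraries allow with both directions counted, came to 0.119 after adjustment over the 5 measures. Ribosomal protein genes took 18.8%, 15.9% and 13.6% of the reads in DualLigation and 18.0% to 19.0% in the standard libraries (exact p = 0.143, adjusted p = 0.167). Genes with a coding length of at least 3000 nt took 9.14%, 15.8% and 16.5% against 9.26% to 9.61% (exact p = 0.167, adjusted p = 0.167). YEF3, at 3135 nt, is among them and alone held 2.58%, 9.23% and 9.78% against 1.35% to 1.40%. A higher share is therefore not shown for long genes other than YEF3. Genes under 300 nt took 2.41%, 2.38% and 1.38% against 1.77% to 1.87% (exact p = 0.167, adjusted p = 0.167). In each of these shares the 3 DualLigation libraries differed more among themselves than the 6 standard libraries did.

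Most genes differed between the preparations. Of 5273 genes tested, 3783 passed an adjusted p of 0.05 (71.7%) in edgeR's quasi-likelihood test with Benjamini-Hochberg adjustment, 1897 higher in DualLigation (36.0%) and 1886 lower (35.8%). By size, 1040 genes rose over 2-fold (19.7%) and 896 fell over 2-fold (17.0%), 378 rose and 243 fell over 4-fold, and 61 rose and 30 fell over 16-fold. The quartiles of the log2 fold change over all genes tested were -0.74 and 0.76, around a median of -0.04. The libraries of the 2 groups did not overlap at all for 3436 genes (65.2%), of which 1671 were higher (31.7%) and 1765 lower (33.5%) in DualLigation.

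The DualLigation libraries were far less alike than the standard ones, with a biological coefficient of variation of 34.9% against 7.25% over the 6 standard libraries taken as 1 group. A fit that gives each group its own variance (limma voom with group weights) called 2690 genes (51.0%), 1486 higher and 1204 lower, and 2680 of them were also called by edgeR in the same direction. With library totals alone as the scaling, the median of all genes moved to -0.72 and the split of calls to 981 higher and 3127 lower. Rises and falls below are thus relative to the composition-corrected centre of each library. Counts in gene lists below are to be read beside the 36.0% and 35.8% of all genes that rose and fell.

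**Figure D1:**
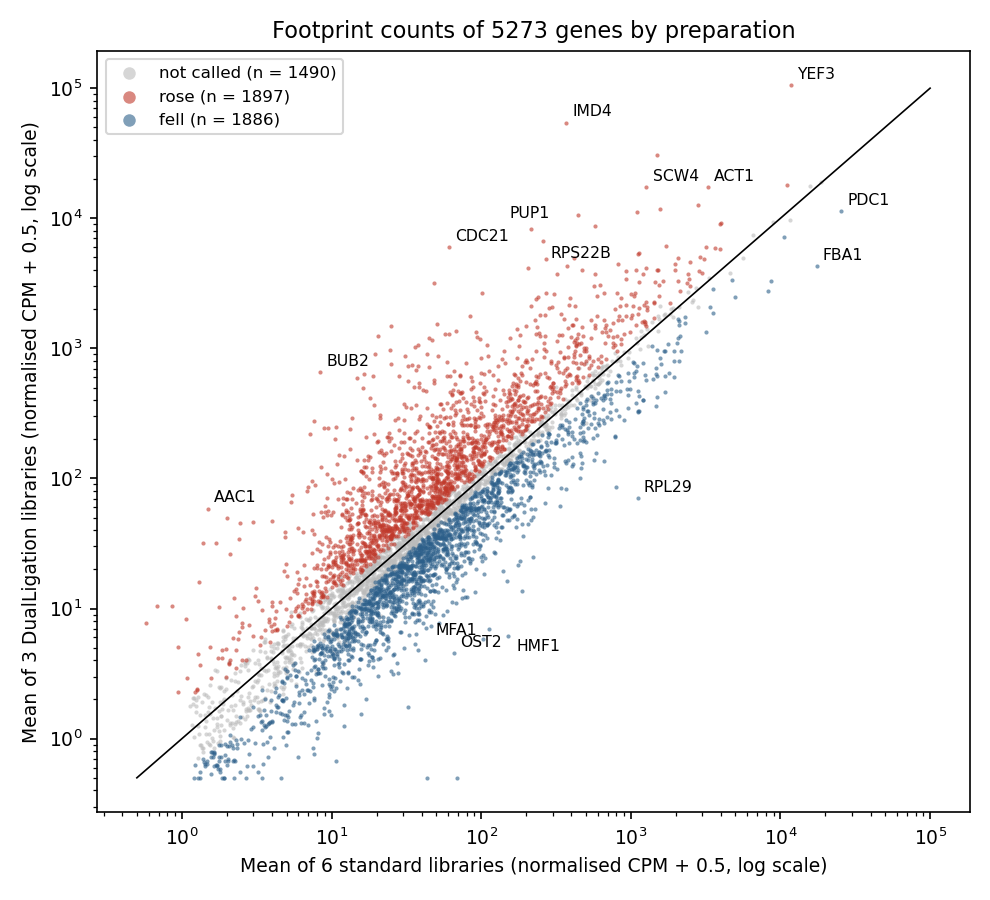
Mean level of each of 5273 genes in the 3 DualLigation libraries (vertical axis) and in the 6 standard libraries (horizontal axis), both as normalised CPM plus 0.5 on log axes, with the line of equal levels. The 1897 genes that rose and the 1886 that fell lie on both sides of the line at every level, and IMD4 and YEF3 reach the top of the vertical axis.

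IMD4 rose most. It stood at 33580, 60150 and 69660 normalised CPM in DualLigation and at 350.1, 365.8 and 388.2 (lowest, median and highest) in the standard libraries. The log2 fold change was 7.21 (SE 0.21, edgeR adjusted p = 3.3e-09), and every DualLigation library lay far above every standard one. Its relatives did not go with it: IMD3 stood at 343 to 389 normalised CPM in DualLigation and 382 to 422 in the standard libraries (-0.11, adjusted p = 0.22), and IMD2 fell by 0.60 on the log2 scale (adjusted p = 0.0026; 0.13 with group weights). CDC21, thymidylate synthase of DNA precursor synthesis, rose from a median of 59.8 normalised CPM (53.2 to 69.6) to 1191, 7359 and 9501, a log2 fold change of 6.64 (SE 0.49, adjusted p = 8.7e-07). BUB2, a mitotic checkpoint protein, was scarce in the standard libraries, at 4.89 to 10.6 normalised CPM, and reached 168, 820 and 970 in DualLigation (log2 fold change 6.36, SE 0.46, adjusted p = 7.6e-07).

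RCL1, a factor in the processing of 18S ribosomal RNA, stood at 998, 5237 and 3346 normalised CPM against 45.0 to 51.2 (log2 fold change 6.07). PUP1, the beta 2 subunit of the proteasome core, stood at 2580, 9740 and 12700 normalised CPM against 207.5 to 217.9 (5.29). AAC1, a minor mitochondrial ADP/ATP carrier, went from about 1 normalised CPM (0.592 to 1.20) to 25, 54.7 and 94.7 (5.88). The other 6 of the 12 largest rises were KTD1 (5.98), YER034W (5.94), SWD3, a subunit of a histone methyltransferase complex (5.57), LAA2 (5.36), AIM36 (5.34) and MRX6 (5.30). The functions known among these 12 genes range over nucleotide synthesis, mitosis, ribosomal RNA processing, chromatin, protein breakdown and mitochondria.

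Among genes at 20 CPM or more in a group and without overlap, HMF1 fell most, from a median of 148.3 normalised CPM (133.9 to 172.6) to 11.9, 2.92 and 2.00, a log2 fold change of -4.83 (SE 0.45, edgeR adjusted p = 4.6e-06). CPP2 fell from 93.8 to 116.5 normalised CPM to 13.1 and 3.03 in DualLigation replicates 1 and 2 and was without a read in replicate 3 (-4.37, SE 0.67, adjusted p = 0.00018). MFA1, which encodes the mating pheromone a-factor, fell from a median of 112.9 normalised CPM (102.8 to 118.7) to 12.9, 4.11 and 2.27 (-4.20, SE 0.41, adjusted p = 6.1e-06). RPL29, a protein of the large ribosomal subunit, fell from 1004 to 1207 normalised CPM to 121.9, 53.3 and 35.4 (-3.99, SE 0.37, adjusted p = 4.0e-06).

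The remaining 8 large falls were OST2, a subunit of the oligosaccharyltransferase (-4.06), HOR7 (-3.87), the mitochondrial ribosomal protein genes MRPL31 (-3.61), MRP35 (-3.40) and MRPL33 (-3.31), LSB1, a regulator of actin assembly (-3.26), RPS10A of the small ribosomal subunit (-3.22) and QCR10 of respiratory complex III (-3.21). Short genes were frequent among the falls: 10 of the 12 had coding lengths under 400 nt, in a range of 111 to 755 nt, while the 12 rises had 558 to 1983 nt. Of these 24 genes all were also called by voom with group weights and in the comparison of DualLigation with each of the 3 standard preparations. They had been picked as the largest changes without overlap in these same libraries, so that these calls are no independent support. In 24 of 24 the DualLigation replicate nearest to the standard libraries was replicate 1.

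**Figure D2:**
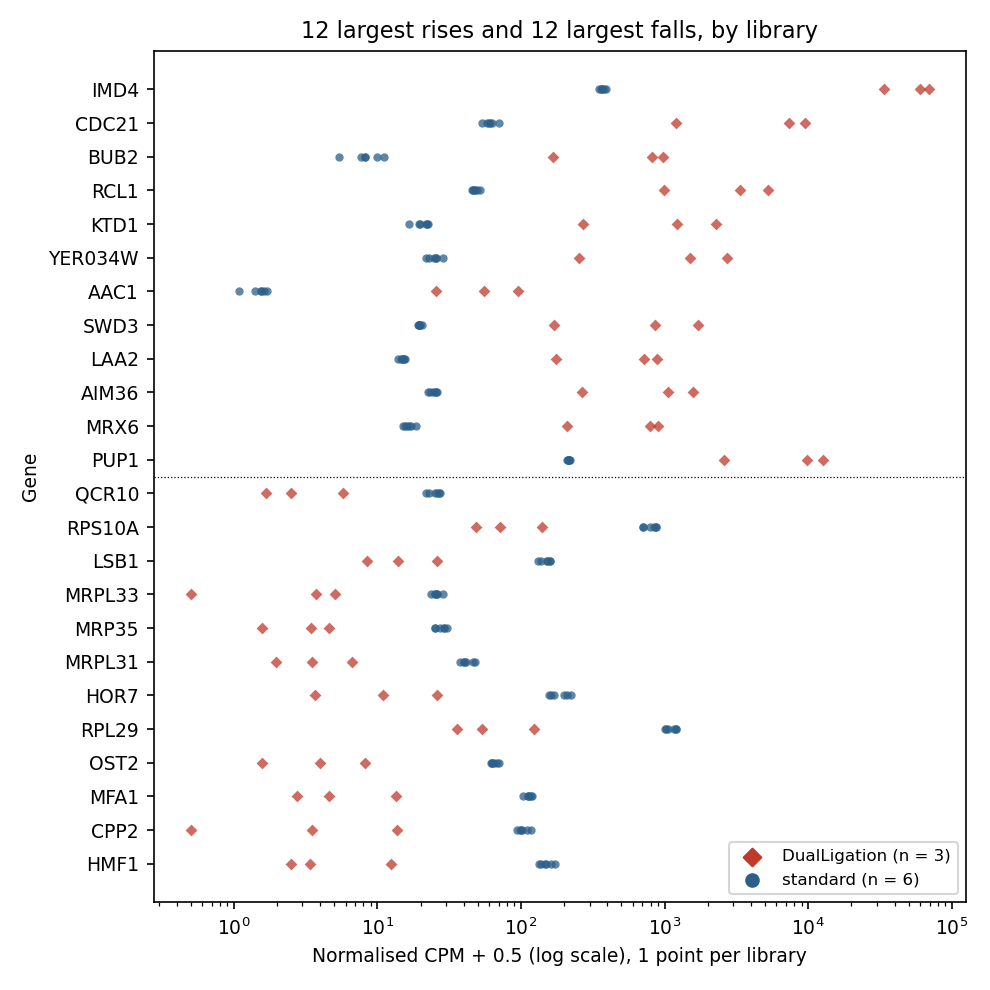
Level in each of the 9 libraries (normalised CPM plus 0.5, log axis, 1 point per library) of the 12 genes with the largest rise and the 12 with the largest fall among genes that passed without overlap. The 6 standard libraries form tight clusters, as for IMD4 at 350.1 to 388.2, and the 3 DualLigation libraries stand well apart from them and from each other.

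YEF3, which helps to clear the spent tRNA from the ribosome in each elongation cycle of fungi, held most reads of all genes in the comparison. Its levels were 29600, 134500 and 151100 normalised CPM in DualLigation and 11360 to 12230 in the standard libraries, with a log2 fold change of 3.17 (SE 0.36, edgeR adjusted p = 2.1e-05). Among 12 translation elongation factor genes 6 rose and 1 fell, at a median of 0.71 against -0.04 for all genes. With group weights 4 were called, all of them higher. EFB1, the exchange factor eEF1B alpha, rose from 2568 to 3124 normalised CPM to 7872, 12970 and 17010 (2.16, adjusted p = 2.8e-06), and HYP2, which encodes eIF5A, rose by 1.01 on the log2 scale (adjusted p = 2.6e-06). TEF1 and TEF2, near-identical genes for eEF1A, and EFT1 and EFT2, near-identical genes for eEF2, cannot be told apart by most of their sequence, and how reads that align to both were treated is not stated. The standard libraries themselves spread widely in them (9.64 to 120 normalised CPM in TEF1). TEF2 passed with 1.96 (adjusted p = 0.026) but not with group weights (adjusted p = 0.21), and TEF1 (0.56, adjusted p = 0.52), EFT1 (-1.12, adjusted p = 0.27) and EFT2 (-0.997, adjusted p = 0.33) did not pass. With library totals alone 3 elongation factor genes rose and 3 fell, at a median of 0.09.

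Of 27 translation initiation factor genes 10 rose and 9 fell, at a median of 0.03, which is close to the shares over all genes. Individual members were nevertheless displaced by large amounts. PRT1, a core subunit of eIF3, stood at 2355, 2959 and 2685 normalised CPM against 621 to 696 (2.02, SE 0.09, adjusted p = 4.6e-08). TIF11, which encodes eIF1A, rose by 1.92 and SUI3, the beta subunit of eIF2, by 1.62 on the log2 scale. Of 21 cytosolic aminoacyl-tRNA synthetase genes, which charge tRNAs with amino acids, 9 rose and 6 fell, at a median of 0.04. Those with the smallest p were FRS2 for phenylalanine (1.00), WRS1 for tryptophan (1.45) and DED81 for asparagine (0.83).

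Ribosome biogenesis factors leaned upward, with 36 of 63 up and 12 down at a median of 0.35, where 36.0% and 35.8% of all genes passed in these directions. NMD3, the export adapter of the large subunit, rose from 150 to 162 normalised CPM to 867, 1348 and 1393 (2.95, SE 0.13, adjusted p = 4.6e-08). UTP18 (2.65) and UTP5 (2.62), both of the small-subunit processome, rose as well. Under library totals alone this median was -0.29, with 19 up and 31 down, beside -0.72 over all genes.

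Cytosolic ribosomal protein genes moved in both directions. For the large subunit 24 of 81 rose and 34 fell, at a median of -0.23, and for the small subunit 24 of 57 rose and 21 fell, at a median of 0.05. The first list of reads in the table of Nonrandom replicate 1, which holds each gene under 2 counts, gave 13 up and 7 down, and 12 up and 6 down, in place of these. RPS22B stood at 6353, 6852 and 6914 normalised CPM in DualLigation and at 247 to 269 in the standard libraries, with a log2 fold change of 4.71 (SE 0.08, adjusted p = 8.7e-11), the smallest p of all genes tested. RPL31A rose by 2.23 and RPS9B by 1.84, and RPS10B fell by 2.20 on the log2 scale. RPL41A and RPL41B, which encode an identical very short protein, stood at 61.3 to 95.0 and 57.6 to 109 normalised CPM in DualLigation against 0.961 to 14.9 and 0.813 to 16.2. Their log2 fold changes, 3.73 and 3.80, differed by the standard preparation, with 6.30 and 5.92 against Nonrandom and 2.54 and 2.61 against 4+3N.

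Most ribosomal proteins of yeast are encoded by a pair of paralogous genes, A and B, whose products are alike or nearly so, and the copies of some pairs differed widely. Of 57 pairs, 17 had 1 copy that rose and 1 that fell, as many as had copies that both rose (6) or both fell (11), where 36.0% and 35.8% of all genes rose and fell. The calls depend on the setting: 9 pairs had opposite calls with group weights, and with the first list of Nonrandom replicate 1 no pair did (edgeR, 4 both rose and 1 both fell). The copies of a pair lay 1.05 apart on the log2 scale in the median, and 12 pairs were over 2 apart, 12 also with group weights and with that first list. Over all genes tested, the quartiles of the log2 fold change were -0.74 and 0.76. Gaps between unrelated genes were not worked out, so that the gaps between copies are not shown to be wider than those. The pair furthest apart was RPS0: RPS0A stood at 6847, 50370 and 34040 normalised CPM against 1402 to 1659 (4.34, adjusted p = 6.8e-06), and RPS0B at 1812, 2124 and 1544 against 1705 to 1920 (-0.01, adjusted p = 0.95). RPL7A fell by 1.46 where RPL7B rose by 1.53 (both on the log2 scale), and RPL31A rose where RPL31B fell by 0.44. RPL31B was not called with group weights (adjusted p = 0.095). How reads that align to both copies were assigned is not stated, and its part in these differences was not tested.

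**Figure D3:**
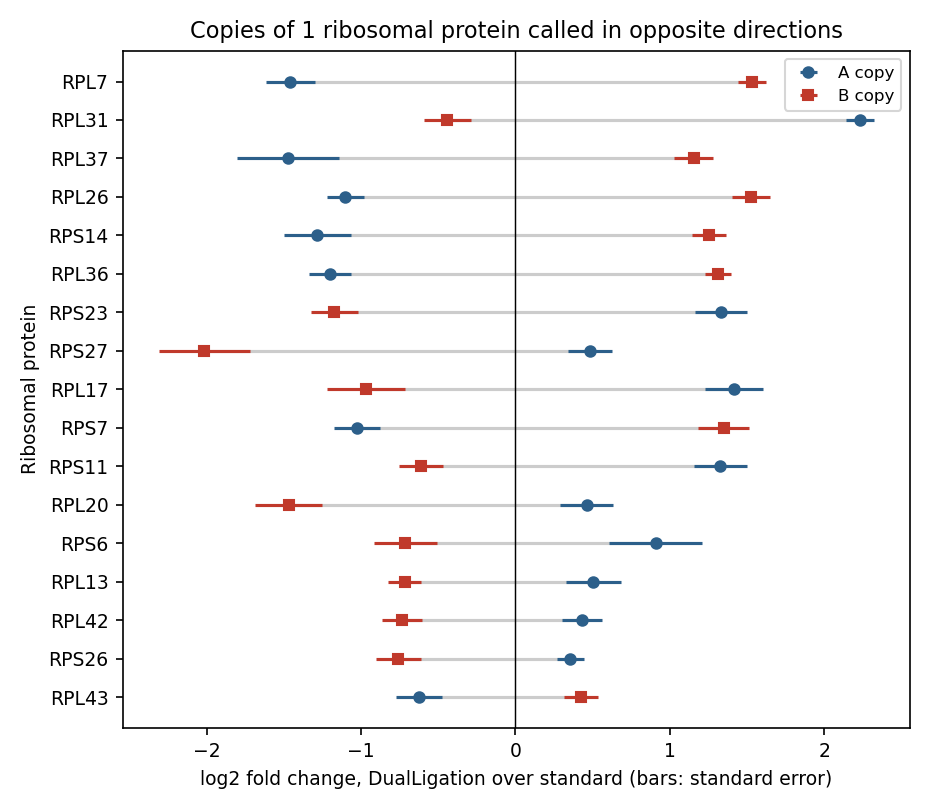
Log2 fold change of DualLigation over standard (horizontal axis) of the A and B copies in the 17 ribosomal protein pairs whose copies edgeR called in opposite directions with the second list of Nonrandom replicate 1; bars are standard errors and grey lines join the copies of a pair. The widest of these is RPL7, with its A copy at -1.46 and its B copy at 1.53.

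Metabolic genes also divided. Glycolysis and the fermentation of pyruvate to ethanol are the main routes of sugar use in YPD. Of 17 glycolytic genes 2 rose and 9 fell, at a median of -0.33, and their joint share of the reads was 8.37%, 5.16% and 4.33% in DualLigation against 11.7% to 12.3%. FBA1, the aldolase, fell from 16760 to 18470 normalised CPM to 5616, 3765 and 3525 (-2.02, SE 0.16, adjusted p = 1.5e-06). GPM1, phosphoglycerate mutase, fell by 1.40 and the minor glyceraldehyde phosphate dehydrogenase TDH1 by 1.12 on the log2 scale. CDC19, PGK1 and ENO2, which are as abundant, did not pass (0.03, 0.17 and -0.24). With the first list of Nonrandom replicate 1, 3 glycolytic genes passed, all of them lower, and FBA1, GPM1 and PDC1 were not called (adjusted p = 0.10, 0.20 and 0.40).

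Of 8 fermentation genes 4 rose and 3 fell. PDC1 fell from 23510 to 27550 normalised CPM to 13440, 10570 and 10020 (-1.17, adjusted p = 1.5e-05), and the mitochondrial alcohol dehydrogenase ADH3 fell by 2.05 on the log2 scale. ALD6, the cytosolic acetaldehyde dehydrogenase, rose by 0.89. Amino acid biosynthesis had 29 of 56 genes up and 16 down (median 0.47). THR1, homoserine kinase of threonine synthesis, rose from 266 to 308 normalised CPM to 1672, 1942 and 2538 (2.84, SE 0.12, adjusted p = 3.4e-08). TRP4 of tryptophan synthesis (2.54) and ARG8 of arginine synthesis (2.54) followed. Ergosterol synthesis, which makes the sterol of fungal membranes, had 14 of 23 up and 3 down (median 0.73), with MVD1 of the mevalonate pathway at 1330, 2655 and 2205 normalised CPM against 272 to 317 (2.80, SE 0.17, adjusted p = 2.4e-07). ERG25 rose by 2.69 and ERG27 by 1.48 on the log2 scale. Under library totals alone the median of ergosterol genes was 0.07 and that of amino acid genes -0.20, with 10 up and 11 down and 18 up and 27 down.

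The cytoskeleton list had the highest median, 0.85, with 12 of 19 genes up and 4 down. ACT1, actin, stood at 12230, 22050 and 18060 normalised CPM against 2986 to 3451 (2.42, SE 0.15, adjusted p = 3.2e-07). TUB2, beta-tubulin, rose by 1.44 and SAC6, an actin bundling protein, by 1.37 on the log2 scale. Under library totals alone the cytoskeleton median was 0.13, with 7 up and 8 down. Of 35 cell wall genes 11 rose and 12 fell, beside 36.0% and 35.8% of all genes. Among them SCW4, a cell wall protein related to glucanases, rose from 1097 to 1411 normalised CPM to 7244, 18730 and 25820 (3.76, SE 0.29, adjusted p = 1.2e-06), BGL2, a glucanase, rose by 1.88, and AGA1, the anchor of a-agglutinin, fell by 3.00 on the log2 scale. Of 7 genes specific to a cells 5 fell and the others did not pass (median -0.78), with STE2 at -0.78 and AGA2 at -1.14.

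Subunits of 1 complex took different values, in a comparison where 36.0% of all genes rose and 35.8% fell. In the ring-shaped chaperonin CCT, which folds actin and tubulin, 5 of 8 subunits rose and 1 fell. CCT2 stood at 1592, 2543 and 3755 normalised CPM against 283 to 334 (3.11, SE 0.20, adjusted p = 3.5e-07), and CCT5 (2.23), CCT4 (1.84), CCT6 (0.54) and CCT8 (0.37) rose too. CCT7 at 0.32 and TCP1 at -0.22 did not pass, and CCT3 fell by 0.37. CCT8 and CCT3 were not called with group weights (adjusted p = 0.064 and 0.091), which left 4 subunits called, all higher, and under library totals alone 3 rose and 3 fell at a median of -0.22. In the standard libraries the 8 subunits had levels of 247 to 380 normalised CPM, and in the DualLigation libraries 195 to 3755. Of 33 proteasome genes 16 rose and 10 fell (median 0.14), with RPN8 at 2.92, PUP3 at 2.59 and RPT1 at 1.48. Of 22 Hsp70 and Hsp90 system genes 10 rose and 7 fell: the ribosome-associated SSB2 and SSB1 rose by 2.25 and 1.40, and the small heat shock gene HSP26 fell by 2.66 on the log2 scale.

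Mitochondrial ribosomal protein genes leaned downward, with 46 of 67 down and 15 up (median -0.71, 36 down and 13 up with group weights). The members with the smallest p had nonetheless risen: MRPS8 from 27.9 to 34.4 normalised CPM to 441, 694 and 1049 (4.51, SE 0.21, adjusted p = 6.7e-08), MRPS16 by 3.86 and RSM18 by 1.86 on the log2 scale. Nuclear genes of the respiratory chain and ATP synthase had 24 of 39 down and 7 up (median -0.58), with ATP18 at -2.67 and the complex III subunits QCR2 at 2.53 and QCR9 at 2.25. Histone genes, which package DNA, had 6 of 10 down and 1 up (median -0.76), with HTA2, a histone H2A gene, at 87.8, 46.4 and 49.2 normalised CPM against 298 to 384 (-2.46, SE 0.22, adjusted p = 2.9e-06). HTB1 fell by 1.24 and HTZ1 by 0.68. The genes of these 3 lists are short, with median coding lengths of 714, 444 and 399 nt against 1267 nt over all genes tested. Other short lists went both ways. The medians of a-cell genes (630 nt) and large-subunit ribosomal proteins (795 nt) were -0.78 and -0.235. Those of small-subunit ribosomal proteins (768 nt) and the vacuolar ATPase (771 nt) were 0.05 and 0.02.

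In the membrane systems, the translocon and glycosylation list had 7 of 18 up and 11 down, beside 36.0% and 35.8% over all genes. OST1, a subunit of the oligosaccharyltransferase, rose from 224 to 240 normalised CPM to 1088, 2216 and 3881 (3.37, SE 0.28, adjusted p = 2.1e-06), while OST2 of the same complex was among the largest falls. SEC61 (2.47) and SEC63 (2.32) of the translocation channel rose. Of 15 vacuolar ATPase genes 6 rose and 7 fell, from VMA13 at 3.07 and VMA6 at 0.88 to VMA11 at -1.59. Of 16 coat subunit genes 6 rose and 4 fell, with the COPII GTPase gene SAR1 at 1.28 and the COPI genes SEC28 at -1.43 and RET3 at -0.81. The coat counts fell to 3 and 3 with group weights.

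**Figure D4:**
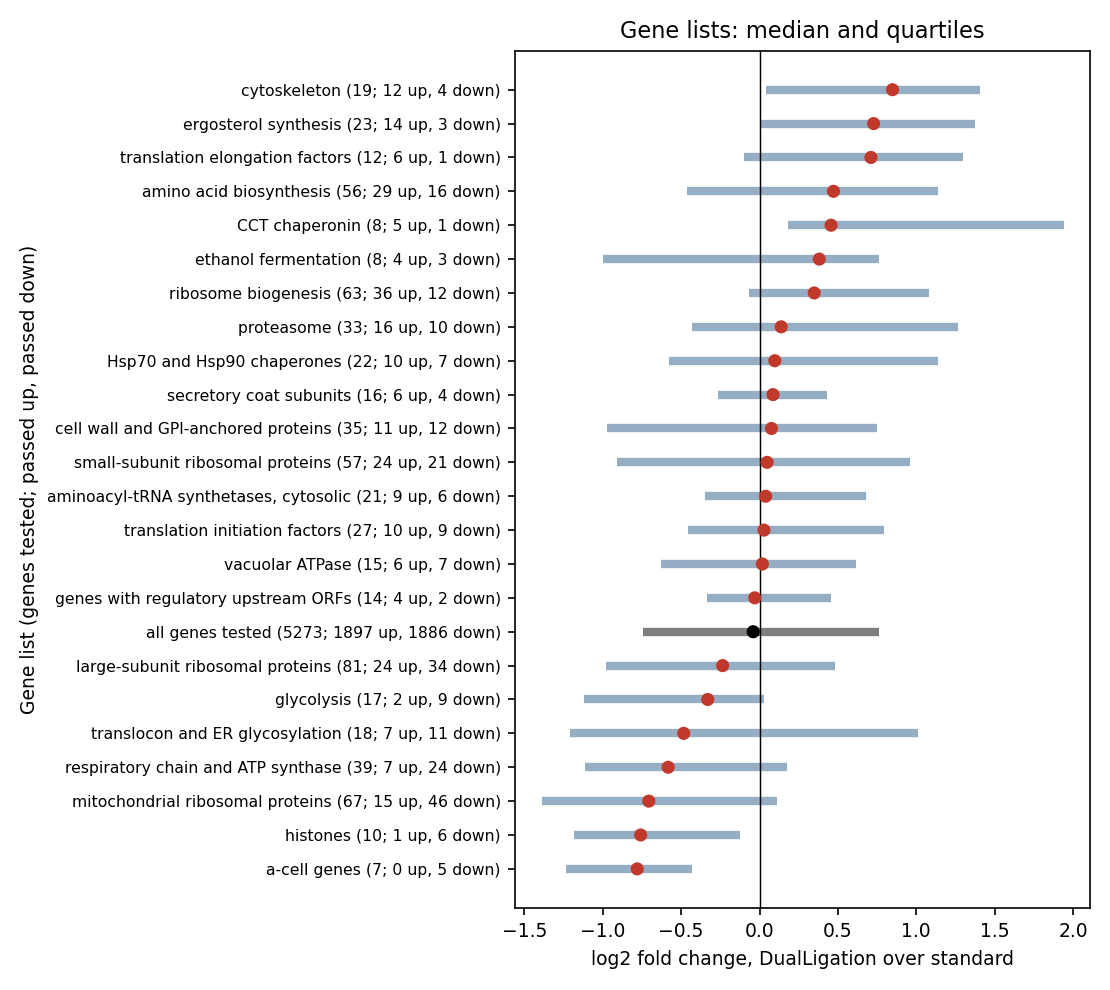
Median (point) and quartiles (bar) of the log2 fold change of DualLigation over standard in each gene list shown. Values over all 5273 genes tested are in black. Labels give the genes tested and those that passed upward and downward. Cytoskeleton genes have the highest median, 0.85, and a-cell genes the lowest, -0.78, and most bars reach across 0.

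Upstream open reading frames hold back translation of the main coding sequence in some yeast mRNAs. Of 14 such genes 4 rose and 2 fell, and 1 and 1 with group weights. GCN4, the activator of amino acid genes, stood at 29.1, 26.7 and 3.20 normalised CPM in DualLigation against 19.9 to 27.6 (-0.35, SE 0.46, adjusted p = 0.50). HAC1, whose translation is blocked by an unspliced intron, stood at 9.71, 6.70 and 9.74 against 8.46 to 11.6 (-0.19, adjusted p = 0.34). PPR1 rose by 2.03 and CLN3 by 0.78 (not called with group weights, adjusted p = 0.067), and SCH9 fell by 0.51 on the log2 scale.

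Some introns of yeast hold a small nucleolar RNA (snoRNA), a stable RNA that guides modification of ribosomal RNA, and several of the genes above are such hosts. This group was put together after the values were seen. Of 8 genes with a snoRNA inside them 6 rose and 2 fell, at a median of 1.05. Over all genes 36.0% rose and 35.8% fell, at a median of -0.04. The 8 include IMD4, the largest rise, and RPS22B, the smallest p. IMD4 (162194 to 164176 on chromosome XIII, sacCer3) holds SNR54 in its intron, at 163535 to 163620. RPS22B (856442 to 857317 on chromosome XII) holds SNR44, at 856710 to 856920, and EFB1 (142174 to 143160 on chromosome I) holds SNR18, at 142367 to 142468. These 3 had the highest log2 fold changes of the hosts, 7.21, 4.71 and 2.16. RPL7B with SNR59 rose by 1.53, ASC1 with SNR24 by 0.57 and NOG2 with SNR191 by 0.50, while TEF4 with SNR38 fell by 0.38 and RPL7A with SNR39 by 1.46 on the log2 scale. ASC1 and NOG2 turn to -0.076 and -0.21 under library totals alone, and TEF4 was not called with group weights (adjusted p = 0.12). Whether reads within introns were counted is not stated, and its part in these values was not tested.

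Gene length went along with direction. Among 152 genes with a coding length under 300 nt, 20.4% rose and 56.6% fell, at a median of -0.82. From 300 to 599 nt 30.1% of 621 genes rose and 45.4% fell (median -0.36). In 1708 genes of 600 to 1199 nt the shares were 35.5% and 37.0%, in 1961 genes of 1200 to 2399 nt 39.2% and 31.7%, and in 829 genes of 2400 nt or more 36.4% and 32.0%. In each of the 3 DualLigation libraries the median of the genes under 300 nt lay below that library's centre over all genes, by log2 values of -0.47, -0.69 and -0.96. The level in the standard libraries showed less: 24.6% of the genes under 10 normalised CPM rose and 30.8% fell, and 40.1% and 38.2% of those at 1000 or more.

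**Figure D5:**
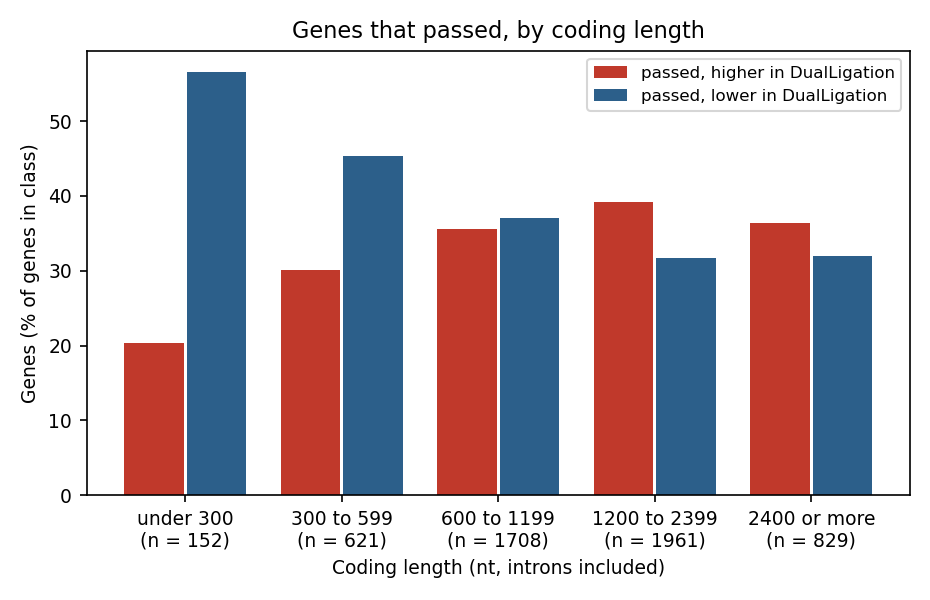
Share of genes (percent of each class) that passed upward and downward in DualLigation, in 5 classes of coding length in nt, introns included, with the number of genes under each class. The share of falls goes from 56.6% in genes under 300 nt to 32.0% in genes of 2400 nt or more.

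The 3 DualLigation libraries departed from the standard ones to unequal degrees. Against the mean of the standard libraries 303 genes in replicate 1, 604 in replicate 2 and 951 in replicate 3 were over 4-fold apart, while each standard library had 3 to 8 such genes against the mean of the other 5. Spearman's rho with the standard mean over the 5273 genes was 0.887, 0.837 and 0.805 for the DualLigation libraries and 0.994 to 0.997 for the standard libraries. Within DualLigation rho was 0.966 (replicates 1 and 2), 0.947 (1 and 3) and 0.974 (2 and 3), and over the 15 standard pairs it was 0.990 to 0.997. These are descriptions over genes, which are not independent replicates. Of 3662 called genes with all DualLigation libraries on the same side, replicate 1 was nearest to the standard libraries in 2170, replicate 2 in 799 and replicate 3 in 693. Replicate 1 also has fewest reads of the 3.

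Among 1415 genes with a mean of at least 100 CPM, 65 were over 4-fold apart within DualLigation and 0 within the standard libraries, and 306 and 3 were over 2-fold apart. VTC5, a subunit of the vacuolar polyphosphate synthase complex, stood at 43.6, 554 and 1229 normalised CPM in DualLigation against 55.0 to 63.4, so that replicate 1 was below the standard range and the others far above it. TUB1, the main alpha-tubulin, went the same way, at 204, 1297 and 2201 against 242 to 276. Its near copy TUB3 stood at 158 to 182 against 140 to 147 normalised CPM. DBP7, a helicase of ribosome assembly, stood at 144, 293 and 1917 normalised CPM, and VPS4, an ATPase of endosomal sorting, at 144, 443 and 1423, against 54.5 to 63.0 and 58.9 to 74.0. The others with the widest range were IVY1, SLM2, VPS71, SWD2, YER034W and SWD3. All 10 passed in edgeR, with log2 fold changes of 2.22 to 5.94.

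Against each preparation by itself, DualLigation stood about as far from Nonrandom, 4N and 4+3N. Of 5300 genes 2960 passed against Nonrandom (55.8%), 1535 higher (29.0%) and 1425 lower (26.9%). Against 4N 2960 passed (55.8%), 1541 higher (29.1%) and 1419 lower (26.8%). Against 4+3N 2893 passed (54.6%), 1510 higher (28.5%) and 1383 lower (26.1%). Of the genes called against the pool, 2689 were called in the same direction in all 3. The comparisons share the DualLigation libraries and are not independent. IMD4 differed by 7.17, 7.21 and 7.21, YEF3 by 3.17, 3.16 and 3.12 and RPL29 by -3.97, -4.02 and -3.98 on the log2 scale.

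The standard preparations were not alike in the open reading frames of the ribosomal DNA on chromosome XII. TAR1 had 0 reads in all 3 DualLigation and in both Nonrandom libraries, and 93.7 ± 20.01 normalised CPM in 4N and 110.3 ± 14.8 in 4+3N (SD, n = 2 each). Against the mean floor of 3 reads in each DualLigation library, which is 0.412 normalised CPM, TAR1 was at least 228-fold lower in DualLigation than in 4N and at least 268-fold lower than in 4+3N. YLR154C-G also had 0 reads in DualLigation, 14 in the Nonrandom libraries, and was at least 143-fold and 167-fold lower in DualLigation than in 4N and 4+3N. These floors cover counting error only. All 4 open reading frames of this list, which includes YLR162W and RRT15, passed against the pool in edgeR, with adjusted p of 0.017 to 0.048, but their adjusted p with group weights was 0.48 to 0.86.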

How the data were processed

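For each library the authors deposited read counts per gene as whole numbers; a gene without a row was set to 0. The submitters' processing notes name CASAVA 1.8, Bowtie 1.0.0 and the sacCer3 build. How reads were assigned to genes, strand use and the handling of reads with several alignments are not given in the sources used here. In Nonrandom replicate 1, 5559 genes are listed 2 times, and the second list was used, with a total of 11656814 reads. Of 5758 identifiers, 5754 matched the R64 annotation, which gave names and coding lengths (start to stop, introns included). Groups came from the titles; a 4+3N library titled replicate 2 carries replicate 1 elsewhere in its labels.

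Counts were filtered (filterByExpr), normalised (TMM) and tested with edgeR 4.0.16 in R 4.3.3 (2 groups, residual degrees of freedom 7; quasi-likelihood F test, two-sided, Benjamini-Hochberg adjusted p under 0.05). The contrasts with single preparations came from a fit with 4 groups. A standard error is the size of the log2 fold change divided by the root of its F statistic. limma 3.58.1 (voom with group weights) and DESeq2 1.42.0 served as alternatives, and exact permutation tests were run in SciPy 1.17.1 (84 arrangements). The scripts were tested on simulated counts. By their names, 208 genes were marked as having a near-identical copy.

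The genes named are the 12 largest rises and the 12 largest falls that passed without overlap (20 CPM or more on average in a group), up to 3 per gene list with the smallest p, the 10 with the widest range among DualLigation libraries (100 CPM or more on average), and fixed genes. Other genes, such as snoRNA hosts, copies of ribosomal protein pairs, CCT subunits, IMD2, IMD3, TUB3, CDC19, PGK1 and ENO2, were chosen after their values were seen. The comparison and the gene lists were chosen with earlier results of these data known. Equal replicate numbers were not seen to pair the groups: the residual correlations of DualLigation with equally numbered standard libraries were -0.0406 to 0.0398. Given the wider spread within DualLigation (coefficient of variation of 34.9% against 7.25%), such low values cannot exclude a pairing. Between equally numbered libraries of different standard preparations the residual correlations were 0.323 to 0.54. Those standard libraries thus shared part of their variation, while the main test took all standard libraries as independent. Apart from the replicate block described below, the effect on the p-values and on the coefficient of variation of the standard group was not tested.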

Additional observations from a re-analysis of the deposited data

How the results depend on the processing

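The comparison with the pool of 6 libraries called 3783 genes, and 21 other settings gave 2690 (group weights) to 4108 (library totals alone). Leaving out single libraries gave 3574 to 4078, RLE size factors 3784, DESeq2 3866, no filter 3848, a mean of at least 50 reads 3591, genes without a near-identical copy 3656, equal depth 3723, the mean of the 3 preparations 3475 and the first list of Nonrandom replicate 1 3383. Leaving out IMD4 and YEF3, chosen after seeing the data, gave 3771. A replicate block, though the numbers are not shown to pair the groups, gave 3895 (1922 higher and 1973 lower). Leaving out single libraries gave 1880 to 3525 calls against Nonrandom, 1863 to 3531 against 4N and 1840 to 3490 against 4+3N. The lowest leave a preparation with a lone sample, which is assumed to vary like the other groups (1880 and 1919, 1863 and 1880, 1840 and 1903), and the highest are those without DualLigation replicate 1. Of 126 named genes 104 kept their call and direction in every setting that gave a value. HTB1, HYP2, RPL7A, FBA1, TEF4, GPM1, PDC1, ASC1, MFA2 and ALD6 were not called with the first list of Nonrandom replicate 1, nor CLN3, TEF2, DED81, VMA6, HIS3 and ALD6 under library totals alone, where HAC1 was; TEF1 was called in the mean of the 3 preparations. Without DualLigation replicate 2, TEF2, TAR1, YLR154C-G, YLR162W and MFA2 were not called. That first list also reduced the falls among initiation factors from 9 to 2 and among aminoacyl-tRNA synthetases from 6 to 2. Signs turned for ASC1 (-0.076), NOG2 (-0.21) and TEF1 (-0.016) under library totals alone and for GCN4 under the replicate block (0.16). Without single libraries TEF1 ranged from -0.13 (without DualLigation replicate 1) to 1.00 and GCN4 from -0.72 to 0.16 (without DualLigation replicate 3). With the first list of Nonrandom replicate 1 the difference in the ribosomal protein share went from -2.26 to 0.00707 percentage points; the cause was not tested. Depth limits the genes near 3 reads per library.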

Other observations

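Genes that lie next to each other sometimes rose together. BUB2 and AAC1, 293 nt apart on chromosome XIII, had log2 fold changes of 6.36 and 5.88, AIM36 and MRPS8, 203 nt apart, 5.34 and 4.51, and SGO1 and CDC21, 131 nt apart on chromosome XV, 3.62 and 6.64. In all, 9 pairs of neighbours under 500 nt apart had both genes called above 2.5. There were 235 such genes among the 5273 tested. How many pairs of this kind would arise without a link between neighbours was not worked out, so that the 9 are not shown to exceed that number. Pairs of neighbours under 500 nt apart numbered 3359. Over all these pairs the fold changes of neighbours had a Pearson r of 0.03 and a Spearman rho of 0.02, given as a description across genes. The pairs were looked for after the values were seen, and whether reads between genes were assigned to them is not stated.

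The order of genes in the 6 mRNA-seq libraries, which the comparison did not use, was closer to the standard footprint libraries than to DualLigation. By their titles these mRNA-seq libraries were made by the standard preparations, and none is titled DualLigation. The part of the shared preparation in this closeness was not tested. Spearman's rho with the mean mRNA level over 5273 genes was 0.812, 0.771 and 0.746 in DualLigation replicates 1, 2 and 3 and 0.882 to 0.886 in the standard libraries.

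IMD4 lay at 795.9 ± 32.3 CPM in mRNA-seq (SD, n = 6), RPS22B at 310.8 ± 22.0 and EFB1 at 2141 ± 64.6.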
